A study of Rattus norvegicus with 8 samples.

Results

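The genes described are 3 matrix metalloproteinases and 3 tissue inhibitors of metalloproteinases (TIMPs), which act on the extracellular matrix, in rat hearts under chronic hypoxia. They were chosen by Ensembl gene ID. The metalloproteinases are Mmp2 (ENSRNOG00000016695), Mmp9 (ENSRNOG00000017539) and Mmp14 (ENSRNOG00000010947), and the inhibitors are Timp1 (ENSRNOG00000010208), Timp2 (ENSRNOG00000003148) and Timp3 (ENSRNOG00000004303). All 6 were found among the 21549 genes listed in the deposited tables of counts and of FPKM, the count per kilobase of gene model relative to the library total. RNA sequencing had been performed on heart tissue of Sprague Dawley rats, an outbred strain, aged 3 months. The 4 control animals were kept in normoxia, and 4 were exposed to chronic hypoxia, a sustained reduction of oxygen, with 1 library per animal. The sources used here do not give how low the oxygen was, for how long, the animals' sex or the heart chamber taken. Strain, age and tissue were the same in both groups. Symbols are those given with the IDs, since the deposited tables hold IDs only.

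Matrix metalloproteinases are zinc-dependent enzymes that are made as inactive precursors and cut collagens, gelatin and other matrix proteins once activated. TIMPs bind their active sites and block them. Mmp14 is a membrane-anchored metalloproteinase that, with TIMP-2 as a bridge, activates pro-MMP-2 at the cell surface, so that TIMP-2 takes part in activation as well as in inhibition. In the heart these genes are best known from remodelling of the interstitial matrix after overload and injury. Transcript levels do not show enzyme activity, which depends on activation and on inhibitor protein.

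Library totals ran from 26229304 to 32160710 counts. Of 14214 genes tested over the 8 libraries, 4693 (33.0%) had an adjusted p under 0.05 in edgeR's quasi-likelihood test (Benjamini-Hochberg over all genes tested), and are described as called. The higher ones in hypoxia were 17.7% of all genes tested and the lower ones 15.3%. Groups that did not overlap were found in 34.3% of genes, 17.3% higher and 17.1% lower. Hypoxia libraries 1 and 2 stood apart from hypoxia libraries 3 and 4 on the second principal component (20.9% of variance, at −37.9 and −29.8 against 29.3 and 27.9), so the log2 fold change of each of the 5 tested genes is also given without either pair. The pairs were picked from these same data, and leaving either out removes the spread between them. Called genes then numbered 5982 without libraries 1 and 2 and 5401 without libraries 3 and 4. The smaller adjusted p-values of these fits are therefore not added support. The defining markers of heart cell types could not be looked up for want of gene names. In bulk tissue, a different number of cells of a type and a different amount of RNA per cell cannot be told apart.

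Timp1 and Timp2 rose in chronic hypoxia, Mmp14 fell, and Mmp2 and Timp3 did not pass the test. Mmp9 was too low to be tested. Thus 3 of the 5 tested genes were called, 2 higher and 1 lower, beside the 33.0% called among all genes. The groups did not overlap in 3 of the 5, beside 34.3%. The median log2 fold change of the 5 was −0.05, beside 0.01 over all genes tested, since rises and falls lay on both sides.

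Of the metalloproteinases, Mmp2, the gelatinase that is made by many stromal cells, was the most abundant. Its levels in CPM (counts relative to the library size, here scaled by the trimmed mean of M values, TMM) were 196, 208, 183 and 184 in normoxia libraries 1 to 4 and 188, 172, 200 and 185 in hypoxia libraries 1 to 4. Hypoxia libraries 1, 3 and 4 lay inside the normoxia range and library 2 lay below it. The means were 193 ± 11.7 and 186 ± 11.5 CPM (SD, n = 4 each). Its log2 fold change was −0.05 (SE 0.08, 95% confidence interval −0.24 to 0.13, edgeR adjusted p = 0.640), so the interval runs from 0.849-fold to 1.09-fold. Mmp2 varied little between animals, with a coefficient of variation of 6.08% in normoxia and 6.19% in hypoxia. It was −0.02 without hypoxia libraries 1 and 2 (edgeR adjusted p = 0.900) and −0.11 without hypoxia libraries 3 and 4 (edgeR adjusted p = 0.345). With the trend of expression on gene-model length removed from each library, the log2 fold change was 0.0018, on the other side of 0.

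**Figure D1:**
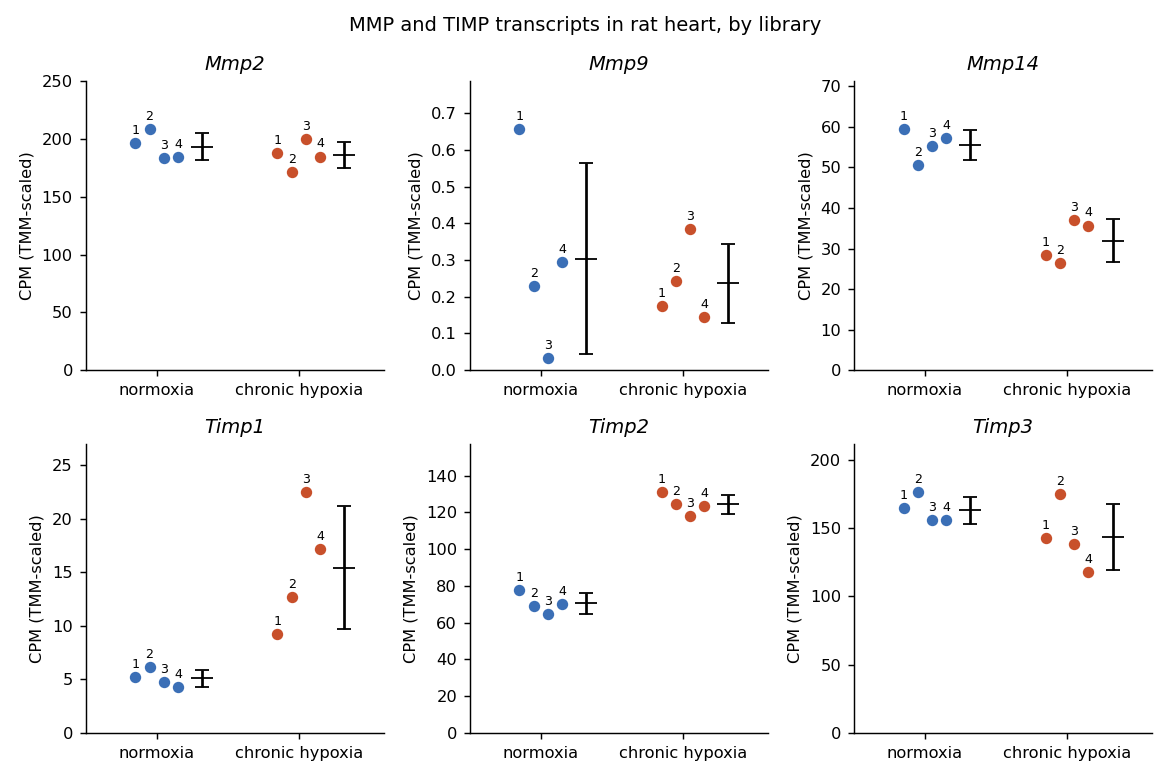
Level of each gene in each library, in CPM on the TMM-scaled library size (y axis, from 0, a different range in each panel). Points are libraries with their replicate number, and the bar beside them is the mean ± SD of 4. Timp1 and Timp2 lie higher and Mmp14 lower in all 4 hypoxia libraries, while the groups overlap for Mmp2, Mmp9 and Timp3.

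Mmp14, the activator of pro-MMP-2, fell. It stood at 59.4, 50.6, 55.2 and 57.1 CPM in normoxia libraries 1 to 4 and at 28.3, 26.4, 37.1 and 35.7 CPM in hypoxia libraries 1 to 4. Every hypoxia library was below every normoxia library, and hypoxia libraries 1 and 2 were the lowest. The means were 55.6 ± 3.72 and 31.9 ± 5.30 CPM (SD, n = 4 each). The level was 1.75-fold lower, with a log2 fold change of −0.80 (SE 0.12, 95% confidence interval −1.07 to −0.54, edgeR adjusted p = 0.00124). Only 4.68% of all tested genes had a lower log2 fold change. Without hypoxia libraries 1 and 2 it was −0.62 (edgeR adjusted p = 5.21e-04), and without hypoxia libraries 3 and 4 it was −1.03 (edgeR adjusted p = 1.30e-04). In the hypoxic group the coefficient of variation was 16.6%, against 6.69% in normoxia.

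Mmp9, the gelatinase known mainly from neutrophils and other inflammatory cells, was close to the limit of detection. Its counts were 22, 7, 1 and 9 in normoxia libraries 1 to 4 and 5, 7, 10 and 4 in hypoxia libraries 1 to 4. The groups overlapped, and 22 of the 39 normoxia counts came from library 1. Summed over each group and divided by the summed library totals, this was 0.331 CPM in normoxia (95% exact Poisson interval 0.235 to 0.452) and 0.219 in hypoxia (0.143 to 0.321), intervals that cover counting error only. Mean CPM differed by −0.0670 between the groups (two-sided exact permutation p = 0.743, n = 4 each, where the smallest possible is 0.0286), and by 0.0506 once normoxia library 1 was left out. Fitted without the filter on low counts, it had an edgeR adjusted p of 0.709 and a log2 fold change of −0.38 (SE 0.65). Its coefficient of variation was 85.8% in normoxia and 45.1% in hypoxia. A difference in Mmp9 was not detectable with counts this low and this spread between animals.

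Among the inhibitors, Timp1, the soluble TIMP that is known to be induced in injured and inflamed tissue, had the largest log2 fold change of the 5 tested genes. It stood at 5.19, 6.20, 4.76 and 4.32 CPM in normoxia libraries 1 to 4 and at 9.26, 12.7, 22.5 and 17.2 CPM in hypoxia libraries 1 to 4. All 4 hypoxia libraries were above all 4 normoxia libraries, and hypoxia libraries 3 and 4 were the highest. The means were 5.12 ± 0.804 and 15.4 ± 5.74 CPM (SD, n = 4 each). They rest on 132 to 189 counts in each normoxic heart and 264 to 587 in each hypoxic heart. The log2 fold change was 1.59 (SE 0.25, 95% confidence interval 1.03 to 2.14, edgeR adjusted p = 0.00166), a 3.01-fold rise, and 98.4% of all tested genes had a lower one.

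The level of Timp1 was uneven among the hypoxic animals, with a coefficient of variation of 37.2%, against 15.7% in normoxia. Without hypoxia libraries 1 and 2 the log2 fold change was 1.94 (edgeR adjusted p = 4.55e-05), and without hypoxia libraries 3 and 4 it was 1.09 (edgeR adjusted p = 0.00147). The pair with the higher Timp1, hypoxia libraries 3 and 4, was also the pair with the higher Mmp14, though both stayed below normoxia for Mmp14. The difference between the pairs was not tested.

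Timp1 has the shortest gene model of the 6, at 740 bp, and short gene models as a whole were higher in these hypoxic hearts. In its length class, the shortest of 10 equal bins (49 to 889 bp, 1422 genes), the median log2 fold change was 0.35 and 34.0% of genes were called higher. Timp2, at 1661 bp, and Timp3, at 1748 bp, share a class (1645 to 1972 bp, 1421 genes) with a median of 0.09. In it 22.6% of genes were called higher and 8.16% lower. After removal of each library's length trend, Timp1 stood at 1.36 on the log2 scale (SE 0.29, edgeR adjusted p = 0.00804). Timp2 stood at 0.70 (SE 0.07, edgeR adjusted p = 4.87e-04), and Timp3 at −0.29 (SE 0.12, edgeR adjusted p = 0.102), still not called. Mmp14, at 2437 bp, hardly moved under this correction, at −0.80.

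Timp2, the soluble inhibitor that also bridges pro-MMP-2 to Mmp14, rose. It was at 78.0, 68.9, 64.9 and 70.1 CPM in normoxia libraries 1 to 4 and at 131, 125, 118 and 123 CPM in hypoxia libraries 1 to 4. The lowest hypoxia library was above the highest normoxia library, and the hypoxia libraries lay close together. The means were 70.5 ± 5.49 and 124 ± 5.34 CPM (SD, n = 4 each). This was a 1.76-fold rise (log2 fold change 0.82, SE 0.08, 95% confidence interval 0.64 to 1.00, edgeR adjusted p = 3.05e-04), with a coefficient of variation of 4.29% in hypoxia and 7.80% in normoxia. It was 0.77 without hypoxia libraries 1 and 2 and 0.85 without hypoxia libraries 3 and 4, called both times.

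Timp3, the inhibitor that is bound to the extracellular matrix, stood at 165, 176, 156 and 156 CPM in normoxia libraries 1 to 4 and at 142, 175, 139 and 118 CPM in hypoxia libraries 1 to 4. Hypoxia libraries 1, 3 and 4 lay below all normoxia libraries, and hypoxia library 2 lay at the upper end of the normoxia range. The means were 163 ± 9.88 and 143 ± 23.9 CPM (SD, n = 4 each), and the log2 fold change of −0.19 (SE 0.12, 95% confidence interval −0.45 to 0.08) did not pass the test (edgeR adjusted p = 0.250). The size and the call depended on single libraries and on scaling. Without hypoxia library 2 the log2 fold change was −0.30 (edgeR adjusted p = 0.0411), and without hypoxia library 4 it was −0.11 (edgeR adjusted p = 0.488). Without hypoxia libraries 1 and 2 it was −0.36 (edgeR adjusted p = 0.0144), but −0.04 without hypoxia libraries 3 and 4 (edgeR adjusted p = 0.763). With library totals in place of TMM it was −0.36 (edgeR adjusted p = 0.0408), a scaling under which the median of all tested genes was itself at −0.17.

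**Figure D2:**
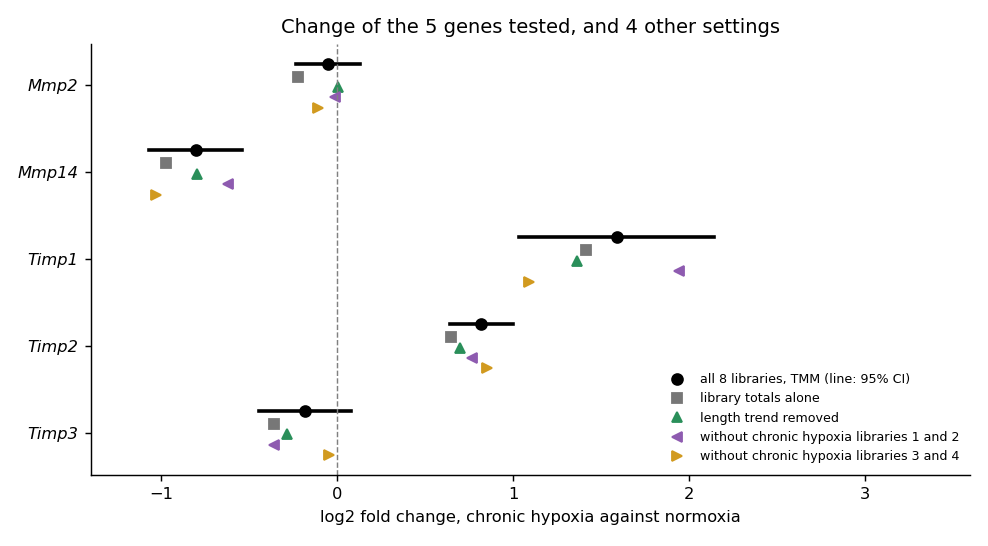
Log2 fold change of chronic hypoxia against normoxia (x axis) for the 5 tested genes, with the 95% confidence interval as a line (black, 8 libraries, TMM) and the estimate under 4 other settings (coloured symbols). Timp1, Timp2 and Mmp14 keep their side of 0 under all 4, from 1.09 to 1.94 for Timp1 and from −1.03 to −0.62 for Mmp14. Timp3 is below 0 under all 4 as well, from −0.36 to −0.04, and Mmp2 lies between −0.23 and 0.0018.

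The RefSeq gene table places Timp1 inside the synapsin gene Syn1 and Timp3 inside Syn3, and places Cep295nl inside Timp2. The sources used here do not give the strand setting of the counting, so reads of such overlapping genes cannot be told apart where their exons overlap. No gene overlapped Mmp2, Mmp9 or Mmp14 in that table.

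Upstream sequences are shown for the 3 inhibitors, of which 2 rose and 1 did not pass the test. Those of Mmp2, Mmp9 and Mmp14 are not used here. Each is the stretch of 250 bases before the RefSeq gene start (build GRCr8, another build than that of the counts), on the minus strand at chrX:3771123-3771372 for Timp1, chr10:104089215-104089464 for Timp2 and chr7:19459559-19459808 for Timp3. Capitals mark matches to the motifs searched.
Timp1: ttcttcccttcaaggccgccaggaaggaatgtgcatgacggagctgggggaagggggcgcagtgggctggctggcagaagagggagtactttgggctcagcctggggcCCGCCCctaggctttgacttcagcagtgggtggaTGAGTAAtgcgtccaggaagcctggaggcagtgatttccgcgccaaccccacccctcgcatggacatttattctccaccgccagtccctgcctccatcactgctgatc
Timp2: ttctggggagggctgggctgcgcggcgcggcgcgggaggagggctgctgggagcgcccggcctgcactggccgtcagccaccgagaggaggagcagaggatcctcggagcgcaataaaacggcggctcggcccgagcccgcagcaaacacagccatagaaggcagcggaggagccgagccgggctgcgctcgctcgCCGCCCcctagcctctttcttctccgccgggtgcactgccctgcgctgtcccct
Timp3: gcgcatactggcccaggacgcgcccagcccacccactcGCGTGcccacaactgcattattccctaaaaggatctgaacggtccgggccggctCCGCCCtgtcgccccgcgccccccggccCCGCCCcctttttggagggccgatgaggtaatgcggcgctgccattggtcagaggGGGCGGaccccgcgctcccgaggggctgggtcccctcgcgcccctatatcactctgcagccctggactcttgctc

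The motifs below were searched on both strands after these sequences had been seen, and a match is a description of letters, not of a bound site. The GC box (GGGCGG) was found once in Timp1, once in Timp2 and 3 times in Timp3, and 30.5% of 33469 RefSeq windows of this length hold it. TGAGTAA, a variant of the binding site of AP-1 (the Fos and Jun transcription factors), was found in Timp1, 102 to 108 bases before the start, and in 2.38% of all windows. The core of the hypoxia response element (ACGTG or GCGTG), which HIF transcription factors recognise, was found in Timp3 and in 36.7% of all windows, and these letters are not in the windows of Timp1 and Timp2. No match to the AP-1 consensus TGANTCA (6.34% of windows), the TATA box TATAAA (12.9%) or the cyclic AMP response element TGACGTCA (1.59%) was found in the 3 windows. The share of G and C was 61.2% in Timp1, 72.0% in Timp2 and 69.6% in Timp3, beside a median of 51.2%.

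Levels were compared between the genes per length, as deposited FPKM. In normoxia the order from high to low was Timp3, Mmp2, Timp2, Mmp14, Timp1 and Mmp9 in all 4 libraries. The means were 99.2 ± 7.69, 66.8 ± 5.19, 45.1 ± 3.74, 24.2 ± 1.50, 7.36 ± 1.29 and 0.102 ± 0.0886 FPKM in that order (SD, n = 4), and no neighbours overlapped. In hypoxia Timp3 was at 77.2 ± 12.4 FPKM, Timp2 at 70.5 ± 4.95, Mmp2 at 57.2 ± 6.43, Timp1 at 19.7 ± 7.88, Mmp14 at 12.3 ± 2.32 and Mmp9 at 0.0714 ± 0.0351 (SD, n = 4). Timp2 was above Mmp2 and Timp1 was above Mmp14 in each hypoxic heart, the reverse of each normoxic heart. In hypoxia library 1 Timp1 and Mmp14 were close, at 12.3 and 11.4 FPKM. Their gene models are 740 and 2437 bp, and these FPKM were not corrected for the length trend. Timp3 and Timp2 were not separated in hypoxia, with ranges of 60.2 to 90.0 and 66.5 to 77.4 FPKM, and Timp2 was the higher in hypoxia library 4. The ranges of Timp1 and Mmp14 overlapped there too, at 12.3 to 30.2 and 9.71 to 15.1 FPKM. Over the 8 libraries Timp3, Mmp2 and Timp2 were above 96.0%, 94.4% and 93.9% of all tested genes in mean FPKM.

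**Figure D3:**
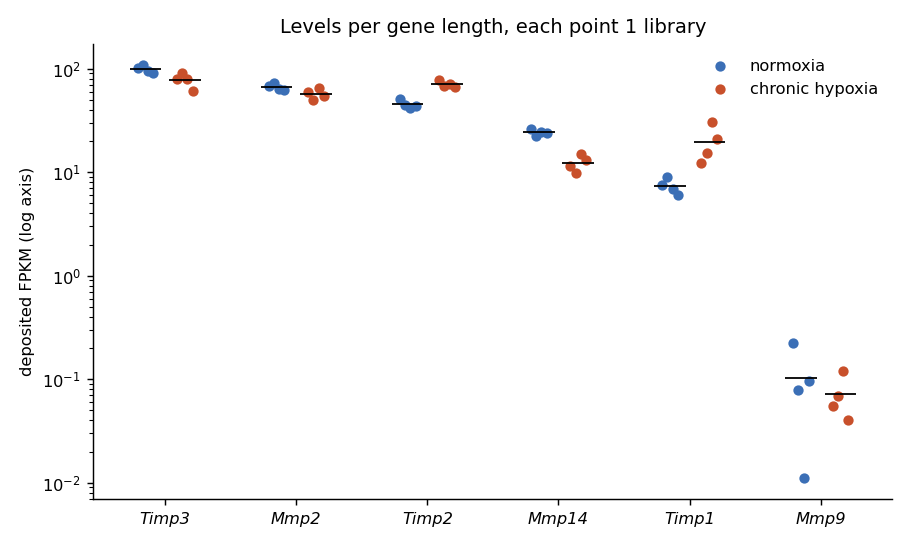
Deposited FPKM of the 6 genes (y axis, log scale) with 1 point per library and the group mean as a line, in the order of the normoxia means. Timp2 and Timp1 pass Mmp2 and Mmp14 in hypoxia, and Mmp9 lies at 0.102 and 0.0714 FPKM, far below the other genes.

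In the makeup of the 3 inhibitors, Timp3 had a smaller share in every hypoxic heart than in any normoxic heart. It held 63.6%, 66.9%, 66.2% and 65.0% of their summed FPKM in normoxia libraries 1 to 4 and 47.1%, 52.1%, 43.8% and 40.8% in hypoxia libraries 1 to 4. The share of Timp2 was 29.8 ± 1.85% in normoxia and 42.3 ± 3.58% in hypoxia, and the share of Timp1 was 4.83 ± 0.537% and 11.8 ± 4.46% (SD, n = 4 each). The groups did not overlap in any of the 3 shares, which sum to the whole and so are not separate results. The summed FPKM of the 3 inhibitors overlapped between the groups, at 152 ± 11.0 and 167 ± 14.0 in normoxia and hypoxia (SD, n = 4 each), on the scale of library totals.

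Among the metalloproteinases, Mmp2 held 73.3 ± 2.17% of their summed FPKM in normoxia and 82.2 ± 1.85% in hypoxia. Mmp14 held 26.6 ± 2.15% and 17.7 ± 1.85% (SD, n = 4 each). Their ranges did not overlap between the groups, and the ratio of Mmp2 to Mmp14 went from between 2.56 and 3.27 to between 4.11 and 5.26. Mmp9 held only 0.110% and 0.101%, so these shares and this ratio are not separate results. Mmp2 itself did not pass the test.

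Ratios within a library do not depend on how libraries are scaled, but the trend with gene-model length was not removed from them. With that trend removed, the log2 fold change was 0.70 for Timp2, 0.0018 for Mmp2 and −0.80 for Mmp14. Without this correction they were 0.82, −0.05 and −0.80. The ratio of Timp2 to Mmp2 was 0.735, 0.611, 0.655 and 0.702 in normoxia libraries 1 to 4 and 1.29, 1.34, 1.09 and 1.23 in hypoxia libraries 1 to 4, so that transcripts of the inhibitor were fewer than those of the enzyme per length in each normoxic heart and more in each hypoxic heart. On the log2 scale the group means were −0.57 ± 0.12 and 0.31 ± 0.13 (SD, n = 4 each), 0.88 apart. The ratio of Timp2 to Mmp14, the pair of the activation complex, was 1.93, 2.00, 1.72 and 1.80 in normoxia libraries 1 to 4 and 6.79, 6.95, 4.68 and 5.08 in hypoxia libraries 1 to 4. Its log2 means were 0.89 ± 0.10 and 2.53 ± 0.29 (SD, n = 4 each), 1.64 apart, with hypoxia libraries 1 and 2 the highest. No test was made on these ratios, which join values already tested above. The ratio of Timp1 to Mmp9 rests on 1 to 22 Mmp9 counts per library and its groups overlapped, at log2 means of 6.79 ± 1.81 and 8.14 ± 0.57 (SD, n = 4 each).

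**Figure D4:**
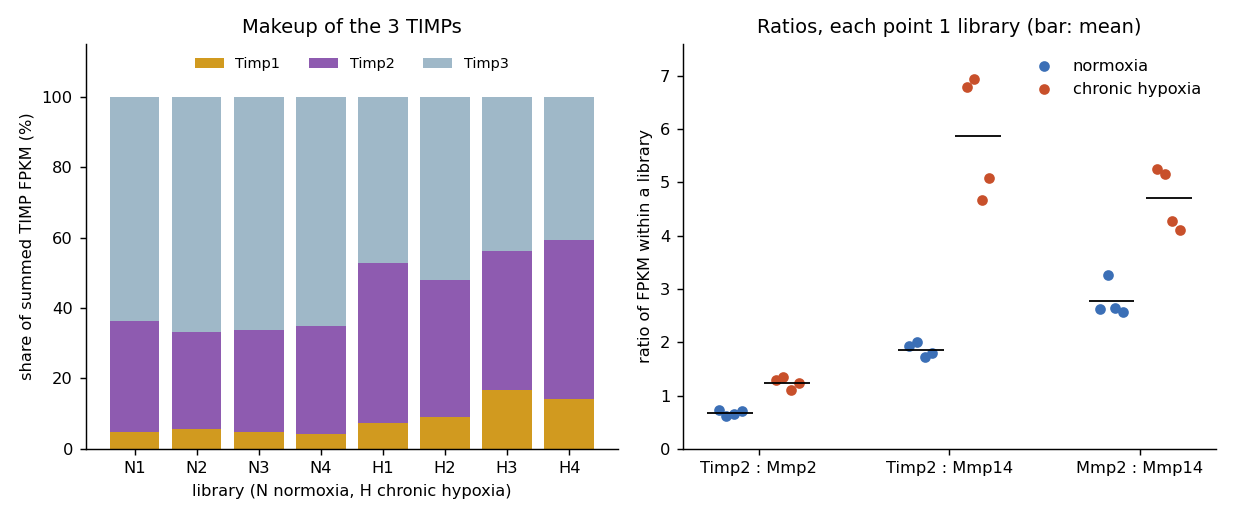
Left, share of Timp1, Timp2 and Timp3 in their summed FPKM (y axis, percent) for each library. Right, ratios of FPKM within each library (y axis, from 0), with 1 point per library and the mean as a line. The share of Timp3 lies at 40.8% to 52.1% in hypoxia against 63.6% to 66.9% in normoxia, and the groups do not overlap in the 3 ratios shown.

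Genes with the pattern most like each called member were sought by Pearson's r of log2 CPM over the 8 libraries, among 12658 other tested genes whose mean reached 1 CPM. These r are descriptions, and the difference between the groups, which is part of each pattern, feeds all of them. ENSRNOG00000003120 was most like Timp2 (r = 0.995), at 47.4 ± 3.54 CPM in normoxic and 92.8 ± 8.58 CPM in hypoxic hearts (SD, n = 4 each). For Timp1 it was ENSRNOG00000031993 (r = 0.990), at 5.19 ± 0.326 and 8.22 ± 1.39 CPM. For Mmp14 it was ENSRNOG00000019416 (r = 0.994), at 14.3 ± 0.180 and 11.9 ± 0.659 CPM. Pearson's r does not measure the size of a change. The log2 fold changes of these genes were 0.97, 0.66 and −0.27, beside 0.82 for Timp2, 1.59 for Timp1 and −0.80 for Mmp14. An r of at least 0.95 was reached by 288 genes with Timp2, 120 with Mmp14 and 97 with Timp1, but by 9 with Timp3 and 4 with Mmp2. The members with more such genes are the called ones, and the counts were not set beside those of other called genes.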

How the data were processed

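The authors deposited whole-number read counts per gene, not normalized, and FPKM values, which divide the count by library total and gene-model length, in each of 8 libraries. The genome build was rn6 and the tools were HTSeq 0.6.0, HISAT2 2.1.0, Bowtie2 2.2.3 and bcl2fastq, per the submitters' processing notes, and the library kit was NEBNext Ultra, per the labels' protocols. The sources used here do not give the annotation release, the strand setting or the treatment of multi-mapped reads. Gene-model lengths were recovered by dividing count by FPKM and library total, and the lengths of a gene from different libraries were equal to a relative tolerance of 0.001 in 100% of values above 0.

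Counts were fitted across all genes with edgeR 4.0.16 in R 4.3.3 (filterByExpr with a minimum count of 10, TMM, quasi-likelihood test, group as the only term, Benjamini-Hochberg adjustment), and the script was tested on simulated data. Called genes had an adjusted p under 0.05. SEs came from the test statistic, and log2 CPM used a prior count of 2. Alternatives used DESeq2 1.42.0, limma 3.58.1, other scalings and filters, a replicate block, a lowess length correction (span 0.3) and left-out libraries. Other values used numpy 2.4.6, scipy 1.17.1 and pandas 2.3.3 in Python 3.11.15, with figures from matplotlib 3.10.9. The members, lists and alternatives were chosen with earlier results of these data known. The named genes are the 6 members, plus the single most similar gene, by ID, of each called member. Lists of other proteases, inhibitors and cell type markers were set up by symbol, but the gene table matched 0 of the 21549 IDs, so they could not be used. Libraries were taken as separate animals, as the extraction protocol counts 4 rats per group.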

Additional observations from a re-analysis of the deposited data

Results flagged for a closer look

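Of 18 groups of 4 libraries examined for a value far from the others, 1 stood apart, and chance alone marks about 5% of groups. This was the log2 ratio of Timp1 to Mmp9 in hypoxia library 4, at 8.99 against 7.80 to 7.97 in the other hypoxia libraries. Mmp9 had 4 counts in that library.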

How the results depend on the processing

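Across 23 alternatives Timp1, Timp2 and Mmp14 were called each time and kept their direction. The alternatives include the fits without either hypoxia pair, which were picked from these same data. Their log2 fold changes ran from 1.09 to 1.94 (adjusted p up to 0.0123), from 0.64 to 0.87 (up to 0.00308) and from −1.03 to −0.62 (up to 0.00629). Mmp2 was called in 0 of 23, and its log2 fold change reached −0.23 on the log2(FPKM + 0.1) scale and changed sign, to 0.0018, with the length trend removed. Timp3 was called in 5 of 23, including limma on log2(FPKM + 1) and log2(FPKM + 0.1) at −0.37 (adjusted p = 0.0390 and 0.0394), scales that use library totals; the cause was not tested. A filter at a mean of 5 CPM kept all 5 tested genes. The difference in mean CPM of Mmp9 ran from −0.157 to 0.0506 with 1 library left out, without normoxia library 3 and library 1. Called genes numbered 3315 to 4758 with 1 library left out and 3315 to 5982 over all alternatives, beside 4693. The split turned from 2516 higher and 2177 lower to 1426 and 3870 with library totals alone, 1195 and 3704 on log2(FPKM + 1), 1195 and 3688 on log2(FPKM + 0.1), and 1108 and 3548 on log2(FPKM + 1) unfiltered.

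A fit with a replicate block called 3841 genes, and log2 fold changes were 1.53 for Timp1, 0.82 for Timp2 and −0.82 for Mmp14, with no call among the 5 changed. The replicate numbers are not said to pair the animals, and same-number correlations were −0.0847 to 0.0187. These few values do not settle whether animals were handled in pairs. With 1 library left out, the differences between groups in log2 ratio ran from 0.83 to 0.94 for Timp2 to Mmp2, from 1.55 to 1.74 for Timp2 to Mmp14 and from 0.78 to 2.18 for Timp1 to Mmp9, whose value of 1.35 was 0.78 without normoxia library 1 and 2.18 without normoxia library 3. Low counts were a limit for Mmp9 alone, as the other genes had at least 132 counts in every library. Its spread between animals was a limit as well.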
